A study of Mus musculus with 12 samples.

Results

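Monocytes and macrophages were followed here through 31 genes by which these cells are recognised, measured by bulk RNA sequencing of subcutaneous mouse pancreatic ductal adenocarcinoma (PDAC) tumours. They were matched by symbol. All 31 were listed in at least 1 deposited table, out of 31106 genes, and 30 had counts in all 12 libraries, out of 25894 genes. A filter on low counts kept 29 of them among the 19436 genes tested. Vsig4 had at most 12 reads in any library and failed the filter, and Marco was not listed in the table that holds the anti-IL-1R1 libraries.

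The 12 libraries formed 4 groups of 3. Combination tumours came from mice given both an agonistic antibody against CD40 and an antibody that blocks the interleukin-1 receptor IL-1R1. CD40 agonist tumours and anti-IL-1R1 tumours each came from mice given one antibody alone, and untreated tumours served as the baseline of both. Therapy was given into the peritoneum 2 times a week. Mouse strain, age, sex, the tumour line, antibody clones and any control antibody were not stated in the labels. Whether each library is a different mouse is not stated, so p-values measure only how these samples spread, which may be technical. The labels give no batch or date.

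Monocytes enter tissue from the blood through the chemokine receptor CCR2 and mature into macrophages under the growth factor CSF1 and its receptor CSF1R. The transcription factor PU.1, encoded by Spi1, sets up the myeloid programme. Mature tumour macrophages engulf dead cells and debris, digest them with lysosomal cathepsins, secrete complement C1q and handle the lipids they take up. In pancreatic tumours they are among the most frequent leukocytes, and CD40 is one of the receptors through which they are activated. Several of the genes are not exclusive to the lineage: Itgam and Cybb are also active in neutrophils, and Spp1, Apoe, Ctsb and Ctsl in tumour or stromal cells. In bulk tissue, fewer cells of a type and less RNA per cell cannot be told apart.

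Libraries held 27.8 to 53.3 M reads in genes. Skeletal muscle transcripts summed to 4247 counts per M reads in genes (CPM) in combination 1 and 2160 CPM in CD40 agonist 2. The other libraries held 5.04 to 71.3 CPM. The labels do not give the source of these transcripts, and counts of genes are also given without combination 1 and CD40 agonist 2. Within the CD40 agonist group, replicate 3 lay near the untreated tumours for many members. The common biological coefficient of variation was 0.446.

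Of the defining markers of the lineage, Adgre1 (F4/80) ranged from 4.79 to 20.2 CPM and Csf1r from 31.4 to 131 CPM over the 12 libraries. Levels of different genes were compared as CPM per kilobase of gene length, averaged over the 12 libraries. Spp1, which encodes the secreted phosphoprotein osteopontin, stood highest at 4691 CPM per kb. Lyz2, Apoe, C1qa, Ctss, Ctsb and C1qb followed between 489 and 133 CPM per kb. A middle tier from C1qc (71.6 CPM per kb) to Clec7a (12.5 CPM per kb) held the signalling adaptor Tyrobp, Ctsl, Cd14, Cd68, Mpeg1 and Laptm5. Spi1 (11.2 CPM per kb), Aif1, Cybb, Msr1, Itgam, Adgre1, Trem2, Cx3cr1, Ccr2, Mertk and Gpnmb (1.49 CPM per kb) came next. The genes that mark resident macrophages were the scarcest, with Siglec1 at 0.713, Cd163 at 0.380, Folr2 at 0.214, Marco at 0.186 over the 9 libraries that list it and Vsig4 at 0.0768 CPM per kb. Of neighbours in this order, Spp1 and Lyz2 did not overlap between libraries, and all other neighbouring pairs did.

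**Figure D1:**
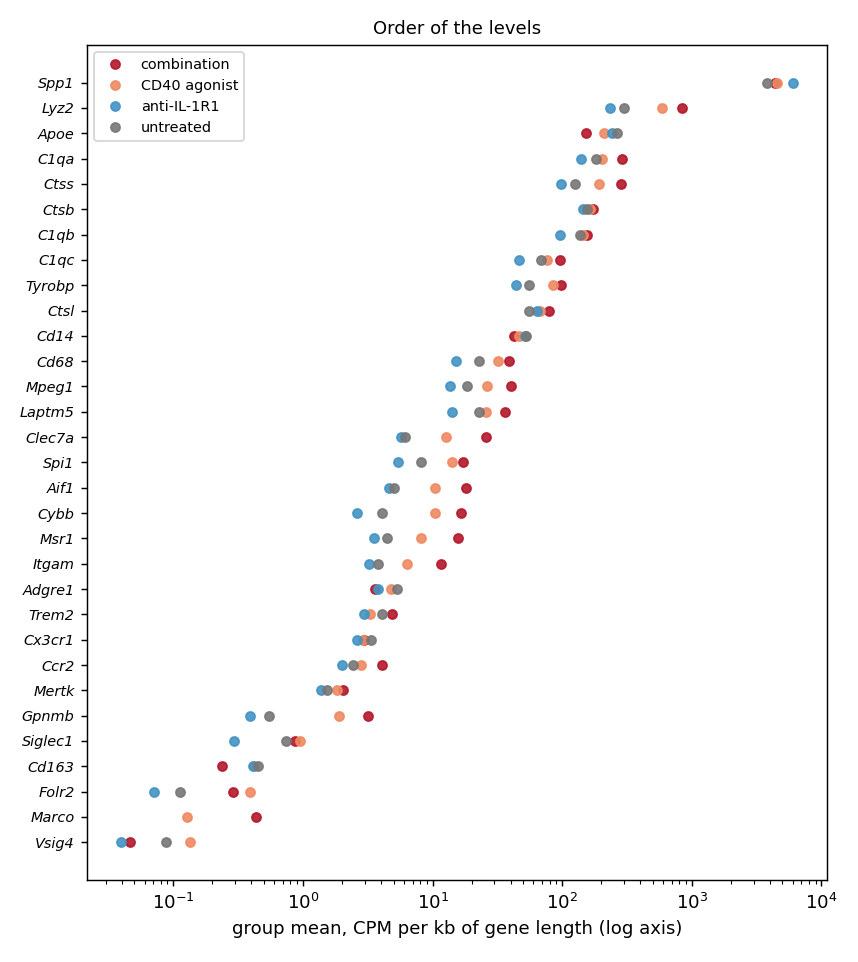
Mean level of each of the 31 members in each group (n = 3 libraries a group), in CPM per kb of gene length on a log axis, ordered by the 12-library mean. Spp1 is highest in every group, and Cd163, Folr2, Marco and Vsig4 lie at the bottom. A gene with no reads in a group, or not listed for it, has no point there.

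Averaged over the agonist and the combination group, 6 macrophage and myeloid transcripts were higher than in the average of the groups without the CD40 agonist. The agonist alone against untreated tumours gave 0 calls. The 6 were Msr1, Aif1, Ctss, Itgam, Tyrobp and Spi1, with average log2 fold changes from 0.88 to 1.50. In this contrast of 6 libraries against 6, 6 of 29 tested members rose and 0 fell at a Benjamini-Hochberg adjusted p under 0.05 in edgeR's quasi-likelihood test. The same rule called 2.19% of all 19436 genes. DESeq2 called 14 members and 1110 of the 19436 genes. Limma voom called 0 members and 0 of all genes, as did a fit with replicate number as a block. In all, 23 members had a positive log2 fold change and 6 a negative one. The median over members was 0.77, against -0.01 over all genes. Without the 2 libraries rich in muscle transcripts, 2 members were called. The count was 0 without CD40 agonist 1, anti-IL-1R1 1, anti-IL-1R1 3, untreated 1 or untreated 2, and 1 without anti-IL-1R1 2 or untreated 3. It was 3 without CD40 agonist 2 or combination 3, 4 without combination 1 and 13 without CD40 agonist 3. Without combination 2, 8 members were called higher and 1, Cd163, lower.

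Spi1, whose product PU.1 is the master regulator of the myeloid lineage, was among them. It stood at 47.3, 45.4 and 45.9 CPM in combination tumours, 36.1, 60.6 and 16.6 CPM in CD40 agonist tumours, 21.8, 10.1 and 11.6 CPM in the anti-IL-1R1 group and 23.4, 15.7 and 26.5 CPM in untreated tumours. The combination libraries were nearly identical and all lay above every library without agonist, whereas CD40 agonist 3 lay inside their range. Spi1 averaged 42.0 ± 14.7 CPM with agonist and 18.2 ± 6.69 CPM without (SD, n = 6 each), a log2 fold change of 1.23 (SE 0.29, adjusted p = 0.0496). Any 1 of 11 single libraries ended this call when it was left out. The gene lies at chr2:90912735-90946101 on the plus strand of mm39.

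Tyrobp encodes DAP12, the adaptor that passes on the signals of TREM2 and related receptors. Its level was 66.1, 63.9 and 65.2 CPM in combination tumours, 52.9, 85.0 and 33.0 CPM in CD40 agonist tumours, 39.2, 24.6 and 24.5 CPM in the anti-IL-1R1 group and 42.2, 31 and 38.3 CPM in untreated tumours. As with Spi1, the combination group was tight, and only CD40 agonist 3 fell among the libraries without agonist. The average log2 fold change was 0.88 (SE 0.20, adjusted p = 0.0416), which leaving out any 1 of 11 libraries ended.

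Aif1, the calcium-binding protein known as IBA1, was the only member whose 6 agonist libraries all lay above the 6 others. Over all tested genes, 0.391% were higher without overlap in that comparison. Aif1 had 27.9, 19.4 and 35.5 CPM in combination tumours, 12.8, 24.5 and 10.7 CPM in CD40 agonist tumours, 6.54, 10.0 and 4.77 CPM in the anti-IL-1R1 group and 9.47, 5.45 and 8.39 CPM in untreated tumours. The gap was narrow, between CD40 agonist 3 and anti-IL-1R1 2. The log2 fold change averaged 1.50 (SE 0.26, adjusted p = 0.0232) and ran from 1.27 to 1.64 when single libraries were left out, with the call kept in 6 of 12.

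Itgam, the CD11b integrin chain of monocytes and neutrophils, was at 42.7, 39.0 and 93.8 CPM in combination tumours, 42.8, 33.0 and 20.3 CPM in CD40 agonist tumours, 16.3, 17.1 and 15.1 CPM in the anti-IL-1R1 group and 21.9, 13.7 and 21.7 CPM in untreated tumours. Combination 3 lay far above all other libraries, and CD40 agonist 3 again lay inside the untreated range. The average log2 fold change was 1.30 (SE 0.24, adjusted p = 0.0272), and 1.37 (adjusted p = 0.0487) without the muscle-rich libraries. Of the remaining lineage and pan-myeloid genes, Clec7a, the beta-glucan receptor dectin-1, had a log2 fold change of 1.60 (adjusted p = 0.0909) and Laptm5, a lysosomal membrane protein of leukocytes, 0.77 (adjusted p = 0.210). Cd14, the lipopolysaccharide co-receptor, had -0.22 (adjusted p = 0.457). In this role group, 4 of 7 tested members rose.

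The cysteine protease cathepsin S, encoded by Ctss and used to trim the invariant chain of MHC class II, rose while its 2 relatives did not pass the test. Ctss had 455, 263 and 439 CPM in combination tumours, 213, 392 and 177 CPM in CD40 agonist tumours, 158, 124 and 115 CPM in the anti-IL-1R1 group and 197, 153 and 161 CPM in untreated tumours. All combination libraries exceeded every library without agonist, and CD40 agonist 3 fell below untreated 1. The average log2 fold change was 1.08 (SE 0.20, adjusted p = 0.0272). Ctsl and Ctsb, the ubiquitous cathepsins L and B, had 0.28 (adjusted p = 0.290) and 0.17 (adjusted p = 0.531).

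Among the scavenger and resident-type receptors, Msr1 had the lowest p of all members. It encodes the class A scavenger receptor that takes up modified lipoproteins. Its level was 96.1, 66.7 and 134 CPM in combination tumours, 52.4, 75.3 and 26.5 CPM in CD40 agonist tumours, 25.2, 22.8 and 19.2 CPM in the anti-IL-1R1 group and 25.6, 26.2 and 33.2 CPM in untreated tumours. Every combination library lay above all libraries without agonist, and CD40 agonist 3 lay within the untreated range. The average log2 fold change was 1.50 (SE 0.23, adjusted p = 0.0223), and 1.31 (adjusted p = 0.0345) without the muscle-rich libraries. The haemoglobin scavenger receptor Cd163 had -0.46 (adjusted p = 0.812), and -1.55 (adjusted p = 0.0420) without combination 2. The other combination libraries held 0.153 and 0.406 CPM of Cd163, combination 2 held 3.33 CPM, and the libraries of the other groups held 1.59 to 3.35 CPM. The sialic acid receptor Siglec1 had a log2 fold change of 0.96 (adjusted p = 0.413) and the folate receptor Folr2 had 1.88 (adjusted p = 0.527) on 0 to 54 reads a library.

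Marco, a second class A scavenger receptor that binds bacteria and particles, could not enter the fit. It had 53, 28 and 18 reads in combination tumours, 12, 18 and 0 reads in CD40 agonist tumours and 0 reads in each untreated tumour. Against a floor of 3 reads over the untreated group, which covers counting error only, its CPM was at least 33.4-fold higher in combination tumours and at least 9.73-fold higher in CD40 agonist tumours. With single libraries left out, these bounds ran from 19.2 (without untreated 1) to 44.0 (without combination 3) and from 5.49 (without CD40 agonist 2) to 14.6 (without CD40 agonist 3). CD40 agonist 3 had no reads, like every untreated library. The table holding the anti-IL-1R1 libraries lists genes with at least 2 reads over its 6 libraries. With unlisted counts set to 0, an alternative chosen after seeing the data, Marco had an adjusted p of 0.0435 for the CD40 agonist average effect in edgeR. All its listed reads lay in libraries with agonist, so it passed the filter on low counts only through them. That p-value is therefore no support for a rise. In the same fit Marco did not pass in combination tumours against untreated (adjusted p = 0.121) or anti-IL-1R1 tumours (adjusted p = 0.0951). CD40 agonist alone against untreated tumours did not pass either.

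**Figure D2:**
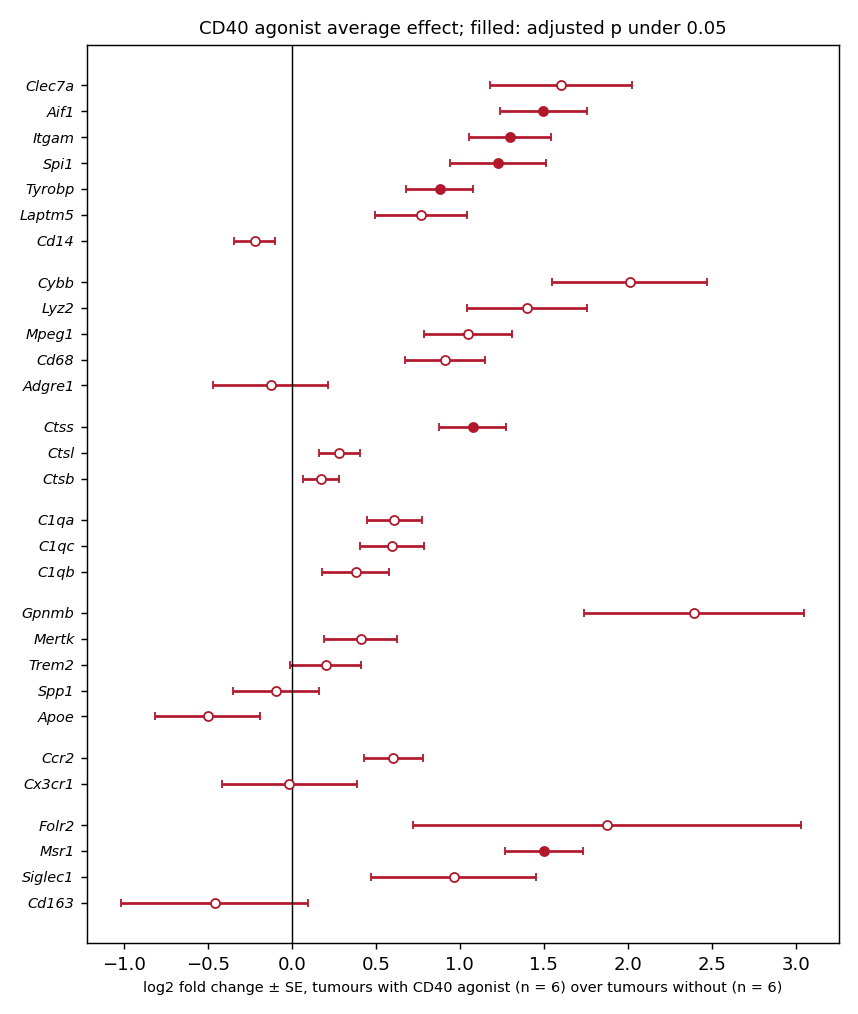
Average log2 fold change of the CD40 agonist (6 libraries with agonist over 6 without) for the 29 tested members, grouped by role, with SE bars. Filled points mark the 6 members with an adjusted p under 0.05, which run from 0.88 (Tyrobp) to 1.50 (Msr1).

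The starts of 23 of the 31 members were found by symbol in a RefSeq promoter table of build GRCm38.p6, and the 250 bases upstream were searched on both strands for GAGGAA, the core to which PU.1 binds. It occurred in 13 of these 23 (56.5%), against 6252 of 27025 genes (23.1%) in the table. A match is a description of the letters and no evidence of binding. The promoters shown belong to the 3 called members in the table and to Marco, each written 5′ to 3′ on the gene's strand and ending at the base before the start, with the motif or its reverse complement TTCCTC in capitals. They lie at chr17:35176053-35176302 (minus strand, Aif1), chr3:95526536-95526785 (plus strand, Ctss), chr7:128062390-128062639 (plus strand, Itgam) and chr1:120505025-120505274 (minus strand, Marco).
Aif1: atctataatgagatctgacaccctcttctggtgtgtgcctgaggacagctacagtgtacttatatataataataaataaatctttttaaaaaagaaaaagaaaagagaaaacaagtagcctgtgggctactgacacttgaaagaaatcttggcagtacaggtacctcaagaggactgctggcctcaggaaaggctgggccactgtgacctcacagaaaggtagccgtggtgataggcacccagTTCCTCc
Ctss: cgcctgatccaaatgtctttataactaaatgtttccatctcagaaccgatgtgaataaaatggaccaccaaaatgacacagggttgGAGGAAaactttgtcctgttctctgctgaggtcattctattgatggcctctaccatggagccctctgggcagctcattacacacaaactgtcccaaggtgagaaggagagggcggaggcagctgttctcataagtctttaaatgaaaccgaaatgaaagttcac
Itgam: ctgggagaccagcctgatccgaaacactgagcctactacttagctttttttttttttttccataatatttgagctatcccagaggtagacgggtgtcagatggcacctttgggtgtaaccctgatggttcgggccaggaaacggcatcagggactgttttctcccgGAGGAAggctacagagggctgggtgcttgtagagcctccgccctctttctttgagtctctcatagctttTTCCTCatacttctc
Marco: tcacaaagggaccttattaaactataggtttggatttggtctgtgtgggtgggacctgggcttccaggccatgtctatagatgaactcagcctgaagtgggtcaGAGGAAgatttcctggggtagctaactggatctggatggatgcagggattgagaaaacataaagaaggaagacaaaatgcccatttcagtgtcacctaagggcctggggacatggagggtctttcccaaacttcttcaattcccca
The motif lay next to the start in Aif1 (first base at -7) and in Itgam (-15), which had another match at -84. It lay farther upstream in Ctss (-164) and Marco (-146).

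The macrophage effector genes had positive log2 fold changes in 4 of 5 cases, and 0 of 5 were called. Lyz2, which encodes lysozyme, had 1715, 751 and 833 CPM in combination tumours, 463, 1509 and 347 CPM in CD40 agonist tumours, 389, 281 and 260 CPM in the anti-IL-1R1 group and 449, 349 and 382 CPM in untreated tumours. All 3 combination libraries exceeded every library without agonist, and both muscle-rich libraries were the highest of their groups. The average log2 fold change was 1.40 (adjusted p = 0.0796), and 0.69 without these 2 libraries. Reads of Lyz2 may be split with its close paralogue Lyz1, so its level is uncertain.

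The NADPH oxidase subunit Cybb had a log2 fold change of 2.01 (adjusted p = 0.0578), the pore-forming protein Mpeg1 1.05 (adjusted p = 0.0657) and the lysosomal glycoprotein Cd68 0.92 (adjusted p = 0.0689). Adgre1, the classical mouse macrophage surface marker, had -0.12 (adjusted p = 0.929). Its values, singled out after they were seen, were 12.9, 17.0 and 4.79 CPM in combination tumours, 7.64, 20.2 and 18.6 CPM in CD40 agonist tumours, 13.0, 6.24 and 17.7 CPM in the anti-IL-1R1 group and 19.3, 13.4 and 19.0 CPM in untreated tumours. The groups overlapped, and combination 3 was the lowest of all libraries.

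The 3 C1q chains assemble into the recognition molecule of the classical complement pathway, which tissue macrophages make. C1qa stood at 272, 302 and 335 CPM in combination tumours, 202, 264 and 172 CPM in CD40 agonist tumours, 193, 127 and 118 CPM in the anti-IL-1R1 group and 202, 140 and 223 CPM in untreated tumours. The combination libraries lay above all 9 others. Averaged over agonist groups, the log2 fold changes were 0.61 for C1qa, 0.60 for C1qc and 0.38 for C1qb, with adjusted p of 0.0701, 0.144 and 0.424.

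Genes of efferocytosis and lipid handling had 0 of 5 called. Spp1 had 5594, 5655 and 10588 CPM in combination tumours, 9211, 4295 and 8883 CPM in CD40 agonist tumours, 6972, 15251 and 7681 CPM in the anti-IL-1R1 group and 5240, 6995 and 6412 CPM in untreated tumours. These ranges overlapped in all groups, and the highest library was anti-IL-1R1 2 (average log2 fold change -0.09, adjusted p = 0.927). Gpnmb, a glycoprotein of lipid-laden macrophages, had a log2 fold change of 2.40 (adjusted p = 0.105), and 1.22 without the muscle-rich libraries, which held its highest values. It ranged from 5.87 to 40.9 CPM in combination tumours and 2.05 to 27.0 CPM in CD40 agonist tumours, against 2.28 to 2.71 CPM in the anti-IL-1R1 group and 1.55 to 5.72 CPM in untreated tumours. The lipid receptor Trem2 had 0.20 (adjusted p = 0.766), the apoptotic cell receptor Mertk 0.41 (adjusted p = 0.441) and the lipoprotein Apoe -0.50 (adjusted p = 0.542).

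Of the monocyte chemokine receptors, 0 of 2 passed the test. Ccr2, which marks recently arrived inflammatory monocytes, had a log2 fold change of 0.60 (adjusted p = 0.0992). Cx3cr1, the fractalkine receptor of patrolling monocytes and some macrophages, had 10.5, 25.4 and 3.85 CPM in combination tumours, 5.55, 14.4 and 19.4 CPM in CD40 agonist tumours, 11.1, 9.51 and 14.9 CPM in the anti-IL-1R1 group and 16.3, 14.8 and 13.9 CPM in untreated tumours. Combination tumours held both the highest and the lowest library, and the average log2 fold change was -0.02 (adjusted p = 0.994).

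**Figure D3:**
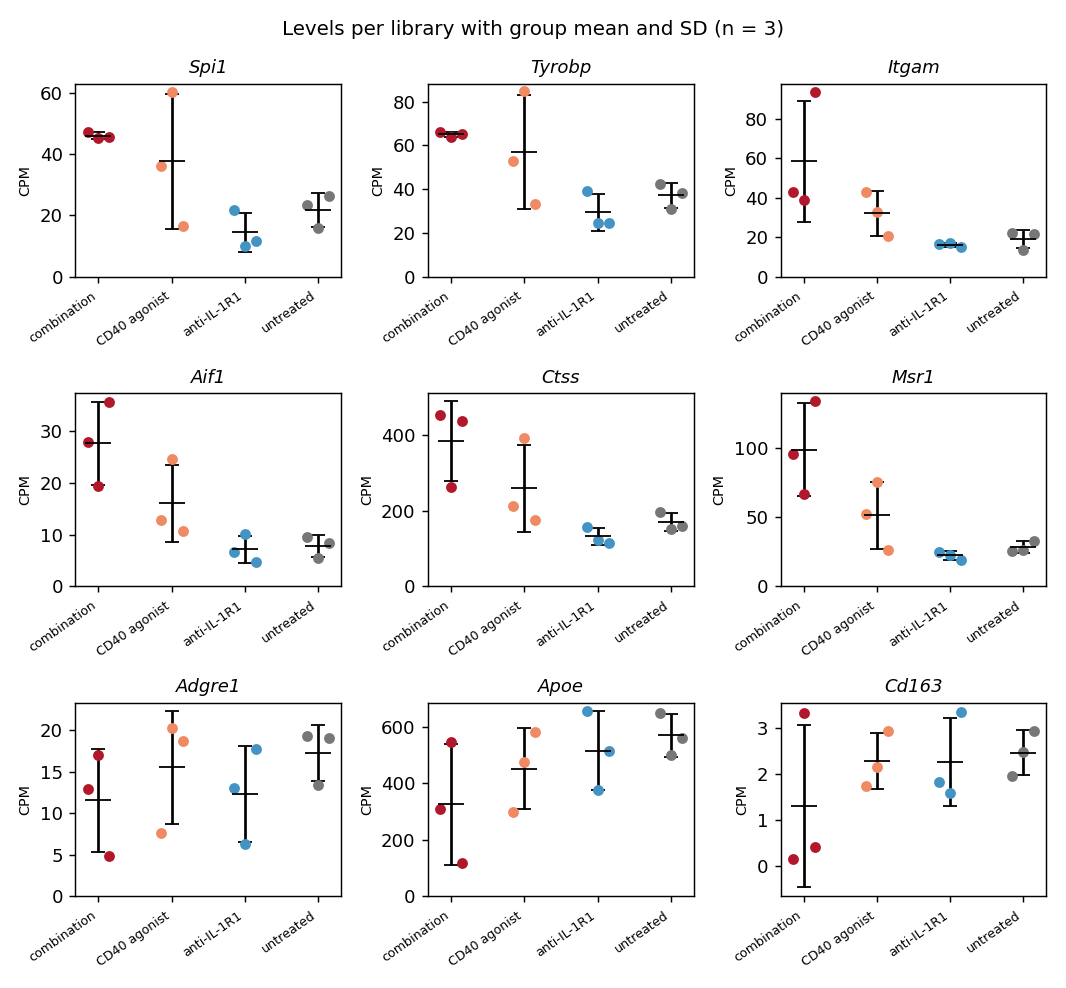
CPM of 9 members in each library (points), with group mean and SD (bars, n = 3), for the called Spi1, Tyrobp, Itgam, Aif1, Ctss and Msr1 and for Adgre1, Apoe and Cd163. In the called genes, combination libraries lie above all untreated ones. The SD bar of Cd163 in the combination group reaches below 0 because 1 of 3 libraries (3.33 CPM) lies far above the others (0.153 and 0.406 CPM).

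The pairwise comparisons share libraries with the average effect and with one another, so their values are given side by side. In combination against anti-IL-1R1 tumours, which differ by the CD40 agonist, 5 of 29 members rose and 0 fell, where 2.44% of all genes were called. These were Msr1 (log2 fold change 2.14, SE 0.34, adjusted p = 0.0245), Ctss (1.54, SE 0.29, adjusted p = 0.0252), Aif1 (1.96, SE 0.37, adjusted p = 0.0253), Itgam (1.85, SE 0.35, adjusted p = 0.0253) and C1qa (1.05, SE 0.23, adjusted p = 0.0352). The median over members was 1.14, against -0.02 over all genes, and 18 of 29 members had all 3 combination libraries above all 3 anti-IL-1R1 libraries, as had 8.80% of all genes. Leaving out any single anti-IL-1R1 library, or combination 3, gave 0 called members. Leaving out combination 2 gave 8 called higher and Cd163 called lower (log2 fold change -2.99, adjusted p = 0.0210). Without combination 1, the muscle-rich library of this comparison, 5 were called, and the fit without both muscle-rich libraries called 11.

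In combination against untreated tumours, 0 of 29 members were called in edgeR, where 0.0617% of all genes were. The 3 lowest adjusted p belonged to Msr1 (log2 fold change 1.80, SE 0.33, adjusted p = 0.0598), Aif1 (1.83, SE 0.37, adjusted p = 0.0676) and Itgam (1.62, SE 0.35, adjusted p = 0.0706). At an unadjusted p under 0.05 there were 15 members (51.7%), against 15.5% of all genes. DESeq2 called 7 members and 1026 of all genes, and limma voom called 0 members and 1 gene. The median over members was 0.68, and 17 of 29 were higher without overlap, as were 10.7% of all genes. Leaving out combination 2 gave 5 members called higher and Cd163 called lower (log2 fold change -3.12, adjusted p = 0.0275).

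CD40 agonist alone against untreated tumours gave 0 called members, and 0.0% of all genes were called in edgeR. The lowest p values were those of Aif1 (log2 fold change 1.04, SE 0.36), Msr1 (0.86, SE 0.33) and Itgam (0.75, SE 0.34), each with an adjusted p of 1.00. At an unadjusted p under 0.05 there were 5 members (17.2%), against 2.41% of all genes. DESeq2 and limma voom called 0 members, and 8 and 0 of all genes. The median over members was 0.27, and 0.02 without CD40 agonist 2. The authors' deposited table for this comparison also called 0 members, with its lowest adjusted p, 0.208, at Aif1.

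IL-1R1 blockade was tested in 2 settings that share no library. In anti-IL-1R1 against untreated tumours, 27 of 29 members had a negative log2 fold change, with a median of -0.34 against 0.00 over all genes, yet 0 members and 0.0% of all genes were called in edgeR. Only 1 member (3.45%) had an unadjusted p under 0.05, against 1.56% of all genes. DESeq2 and limma voom called 0 members and 0 of all genes. The lowest p values were those of C1qc (log2 fold change -0.58, SE 0.27), Siglec1 (-1.33, SE 0.70) and Spp1 (0.68, SE 0.36), each with an adjusted p of 1.00. C1qc had 136, 60.5 and 70.5 CPM in anti-IL-1R1 tumours, against 148, 97.5 and 154 CPM in untreated tumours. Siglec1 had 2.80, 0.810 and 2.66 CPM in anti-IL-1R1 tumours, against 5.57, 2.63 and 7.62 CPM in untreated tumours. Both genes overlapped between the groups through single libraries.

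In combination against CD40 agonist tumours, the same antibody was added to the agonist. Here 22 of 29 members had a positive log2 fold change, with a median of 0.29, and 0 members were called, where 0.00515% of all genes were. Msr1 (log2 fold change 0.94, SE 0.33, adjusted p = 0.663), Itgam (0.87, SE 0.34, adjusted p = 0.712) and C1qa (0.51, SE 0.23, adjusted p = 0.742) had the lowest p. At an unadjusted p under 0.05 there were 4 members (13.8%), against 6.64% of all genes. DESeq2 and limma voom called 0 members, and 100 and 0 of all genes. The median was 0.69 without CD40 agonist 2 and 0.18 without combination 1.

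Of 29 members, 21 had a negative log2 fold change for the blockade alone and a positive one on top of the agonist. Over all genes, 49.9% were higher for the blockade alone and 50.3% on top of the agonist. The share of all genes with both signs was not computed, so the count of 21 has no background to be set against. The interaction, which tests the difference between these effects, called 0 members and 0.0% of all genes in edgeR. At an unadjusted p under 0.05 there were 7 members (24.1%), against 4.37% of all genes. DESeq2 and limma voom called 0 members, and 21 and 0 of all genes. Its lowest p values were those of Msr1 (interaction 1.29 on the log2 scale, SE 0.46), C1qa (0.88, SE 0.32) and Trem2 (0.99, SE 0.42), each with an adjusted p of 1.00. The median interaction was 0.86, against -0.03 over all genes. Trem2 had 26.2, 22.6 and 22.9 CPM in combination tumours, 12.0, 17.7 and 19.5 CPM in CD40 agonist tumours, 22.4, 11.5 and 10.4 CPM in the anti-IL-1R1 group and 23.6, 14.7 and 22.0 CPM in untreated tumours. The combination lay above the CD40 agonist group without overlap, whereas anti-IL-1R1 and untreated tumours overlapped.

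Averaged over both settings, the blockade gave a median of 0.00, 15 positive and 14 negative log2 fold changes, 0 called members and 0.0% of all genes called in edgeR. No member had an unadjusted p under 0.05, against 4.58% of all genes. DESeq2 and limma voom called 0 members, and 27 and 0 of all genes. Ctsl (log2 fold change 0.21, SE 0.12), Siglec1 (-0.73, SE 0.49) and Itgam (0.32, SE 0.24) had the lowest p, each with an adjusted p of 0.895. Ctsl had 444, 510 and 572 CPM in combination tumours and 393, 458 and 387 CPM in anti-IL-1R1 tumours, against 518, 353 and 435 CPM in CD40 agonist tumours and 333, 377 and 375 CPM in untreated tumours.

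**Figure D4:**
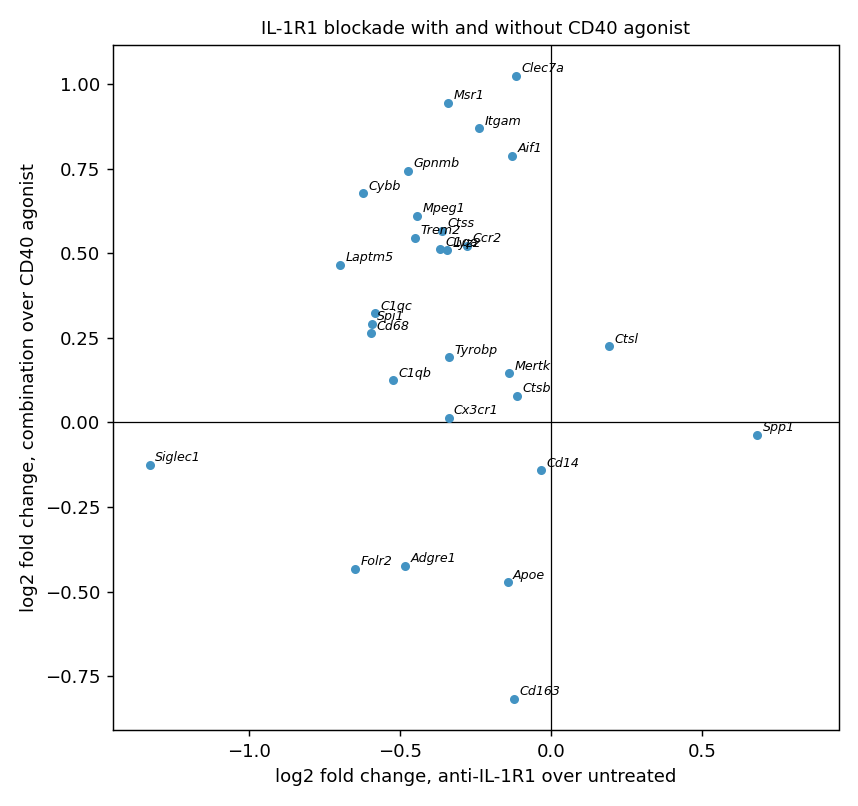
Log2 fold change of IL-1R1 blockade for the 29 tested members, alone (horizontal axis, anti-IL-1R1 over untreated) and with the agonist (vertical axis, combination over CD40 agonist), from comparisons that share no library. In the upper left quadrant lie 21 members, and no member passed the test in either comparison or in the interaction. The share of all genes in that quadrant was not computed.

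Libraries of a group differed in the members for which they were the highest or the lowest. Combination 3 was the highest of the 12 libraries for 6 members (Itgam, Ctsl, C1qa, Msr1, Aif1 and Clec7a) and the lowest for 3 (Adgre1, Apoe and Cx3cr1). Over all genes it was the highest for 19.0% and the lowest for 20.8%. Its share of highest members was thus near that of all genes, and its share of lowest members was below it. The 2 libraries rich in muscle transcripts, combination 1 and CD40 agonist 2, were the highest for 8 and 7 members, and for 11.5% and 6.16% of all genes. At the other end, anti-IL-1R1 3 was the lowest for 10 members and anti-IL-1R1 2 for 9, where they were the lowest for 7.84% and 10.2% of all genes. CD40 agonist 3 and untreated 3 were the highest or lowest for none. Over all genes, CD40 agonist 3 was the highest for 4.59% and the lowest for 4.05%, and untreated 3 for 6.29% and 5.16%.

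The ratio of Itgam to Adgre1 showed the same unevenness. It was 3.31, 2.30 and 19.6 in combination tumours, 5.61, 1.63 and 1.09 in CD40 agonist tumours, 1.26, 2.75 and 0.855 in the anti-IL-1R1 group and 1.13, 1.02 and 1.14 in untreated tumours. Untreated tumours were near 1 in all 3 libraries, and the ranges of the treated groups were wide.

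**Figure D5:**
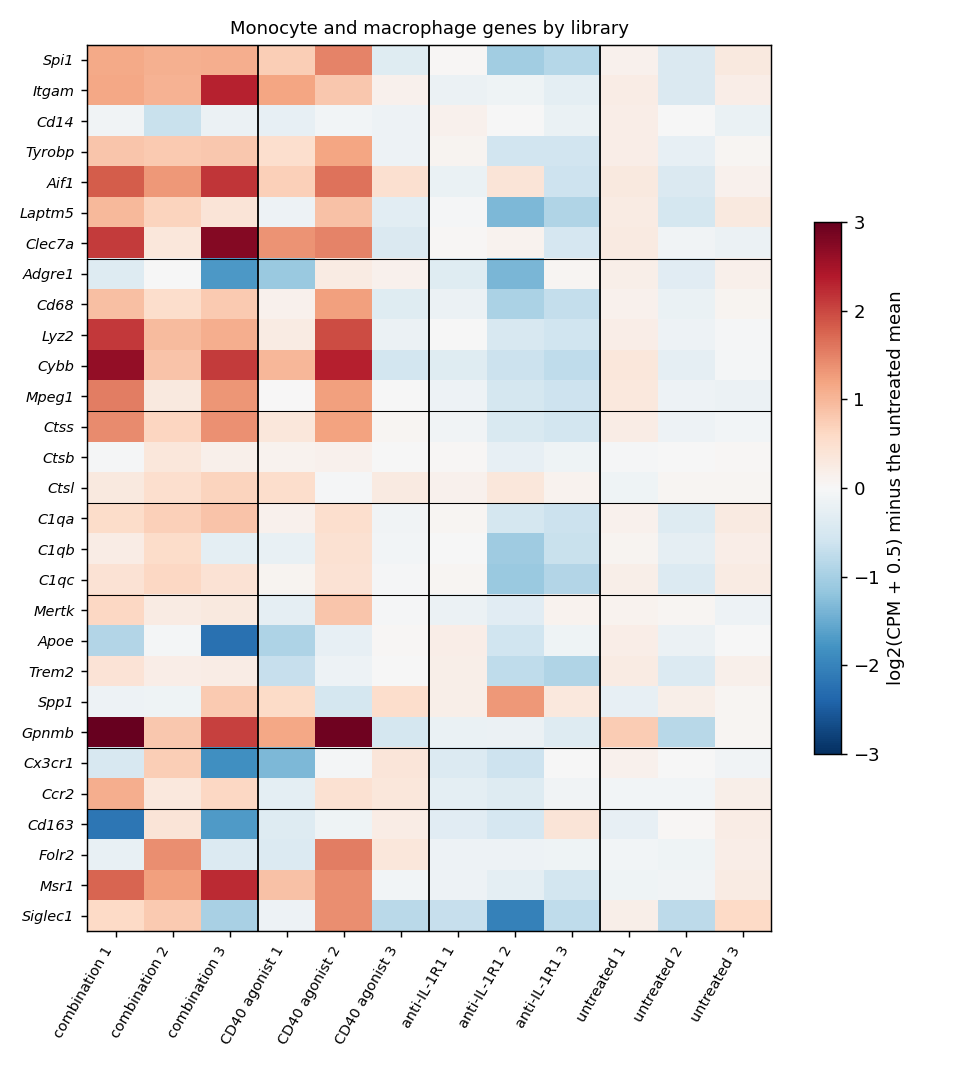
Log2(CPM + 0.5) of the 29 tested members in each of the 12 libraries, minus the untreated mean, by role, with libraries ordered from combination to untreated and colours limited at the ends of the scale. Combination libraries and CD40 agonist 2 are mostly above the untreated mean, CD40 agonist 3 is close to it, and combination 3 is low for Adgre1, Apoe and Cx3cr1.

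Ptprc, the pan-leukocyte gene CD45, rose as well with the agonist (log2 fold change 1.46, adjusted p = 0.0459). Per Ptprc read, 6 of 29 members had a higher mean with agonist than without (Gpnmb, Folr2, Cybb, Aif1, Msr1 and Clec7a), and in none of these did the 6 libraries with agonist lie apart from the 6 without. Adgre1 per Ptprc was 0.156, 0.477 and 0.0426 in combination tumours, 0.229, 0.286 and 0.843 in CD40 agonist tumours, 0.778, 0.269 and 0.983 in the anti-IL-1R1 group and 0.858, 0.826 and 0.694 in untreated tumours. The 3 combination libraries lay below all untreated ones. This was not particular to Adgre1, as the same held per Ptprc for Cd14, Apoe, Trem2, Ctsb, Spp1, Ccr2 and, narrowly, C1qb and C1qc. The remaining tested members overlapped between these groups. Ptprc itself had 82.9, 35.6 and 113 CPM in combination tumours, against 22.5, 16.2 and 27.4 CPM in untreated tumours. A gene of unchanged level would therefore also fall per Ptprc read. The share of all genes was not computed for these ratios, so the members counted per Ptprc read have no background to be set against.

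The growth factor gene Csf1 had 94.3, 128 and 155 CPM in combination tumours, 74.5, 93.2 and 41.5 CPM in CD40 agonist tumours, 37.2, 21.3 and 33.3 CPM in the anti-IL-1R1 group and 59.8, 50.4 and 51.8 CPM in untreated tumours. It rose with the agonist on average (log2 fold change 1.20, adjusted p = 0.0227) and in combination against anti-IL-1R1 tumours (2.04, adjusted p = 0.0149). Its receptor Csf1r had an average log2 fold change of 0.54 (adjusted p = 0.303).

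In a list of 40 other monocyte and macrophage genes, 10 of 39 tested rose with the agonist on average and 0 fell, with a median log2 fold change of 0.63. Over all genes, 2.19% were called and the median was -0.01. The list was chosen with earlier results of these data known. The 10 were Cd84, Chil3, Ctsz, Fcer1g, Fcgr1, Fcgr3, Irf8, Pirb, Ptafr and Tlr2. Of these, Chil3, Pirb and the Fc receptors have close relatives that may share reads. The Fc receptor gamma chain Fcer1g averaged 91.1 ± 52.8 CPM with agonist and 37.9 ± 10.3 CPM without (SD, n = 6 each; log2 fold change 1.20, adjusted p = 0.0475). The lineage factor Irf8 averaged 64.0 ± 28.5 CPM with agonist and 23.7 ± 8.73 CPM without (log2 fold change 1.44, adjusted p = 0.0462). The lysosomal enzyme Lgmn (0.09, adjusted p = 0.844) and the mannose receptor Mrc1 (0.02, adjusted p = 0.974) did not pass the test.

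Markers of neutrophils and of T and NK cells were higher in some of the same libraries, and those of other leukocytes were mixed. For the CD40 agonist average effect, 5 of 9 tested dendritic cell markers had a positive log2 fold change (median 0.18). The same held for 5 of 6 B cell markers (median 0.86) and 0 of 6 mast cell markers (median -0.57). The largest B cell sum, 37.3 CPM, was that of an untreated tumour. The 13 neutrophil markers summed to 10.1 to 21.9 CPM in combination tumours, 5.76 to 28.2 CPM in CD40 agonist tumours, 6.24 to 6.48 CPM in the anti-IL-1R1 group and 5.17 to 9.92 CPM in untreated tumours. Of the 8 tested, 7 had a positive average log2 fold change with the agonist, with a median of 1.59, and S100a9 rose (2.56 ± 1.46 CPM with and 0.616 ± 0.373 CPM without, SD, n = 6 each; adjusted p = 0.0337). All 13 had reads in combination tumours. Markers without reads in a group were Ngp and Elane in CD40 agonist tumours, Camp, Ngp and Ltf in anti-IL-1R1 tumours, and Ngp, Elane, Mpo and also Retnlg in untreated tumours. The 12 T and NK cell markers summed to 27.8 to 126 CPM in combination tumours, 9.08 to 45.9 CPM in CD40 agonist tumours, 5.22 to 15.4 CPM in the anti-IL-1R1 group and 15.4 to 36.5 CPM in untreated tumours. The 12 epithelial markers summed to 2604 to 3489 CPM in combination tumours, 4007 to 5570 CPM in CD40 agonist tumours, 4167 to 5169 CPM in the anti-IL-1R1 group and 4064 to 5624 CPM in untreated tumours. CD40 agonist 3, which lay near the untreated tumours for most members, held the fewest neutrophil and T cell reads of its group. The part of these cells in the differences of Itgam, Cybb, Tyrobp and Spi1, which neutrophils also express, was not tested.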

How the data were processed

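Total RNA of tumour tissue was sequenced in 12 libraries, and groups were taken from the sample titles. The authors deposited 3 pairwise tables (27880, 29098 and 29014 genes), which per the file headers hold raw read counts per gene and library, gene length in bases, and the log2 fold changes with adjusted p-values of the authors. The submitters' processing notes name mm39 and DESeq2. Aligner, counter, annotation release and strandedness: not given in the sources used here. The deposited tables list genes with at least 2 reads over their 6 libraries. The deposited log2 fold changes and adjusted p-values were used only where the authors' table is named, and 42 columns of normalized values were not used. Libraries present in more than 1 table had 0 mismatched counts. The lowest median chi-square per gene between any 2 libraries was 5.19 (genes with at least 20 reads), so none was a copy.

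Counts of 25894 genes were fitted with edgeR 4.0.16 (R 4.3.3): TMM scaling, filterByExpr, 1 robust quasi-likelihood fit of 4 group means over 12 libraries, and Benjamini-Hochberg adjustment over 19436 genes at a threshold of 0.05. SE is the log2 fold change divided by the square root of its F statistic. CPM uses TMM-scaled totals. DESeq2 1.42.0, limma voom (limma 3.58.1), other scaling, no filter, only the compared groups, a replicate block and leaving out single libraries were alternatives. A fit without both muscle-rich libraries and one of genes in any table, with unlisted counts as 0, were chosen after seeing the data. The scripts were tested on simulated data. The members and lists were chosen with earlier results of these data known. Tests are given for members called in a comparison and for the 3 with the lowest p of each. Levels per library are given for these and for the member of each role with the highest CPM per kb. Other members are given by their fold change, and those singled out later are Adgre1, Cd163, Gpnmb and Marco. Promoter sequences come from RefSeq (GRCm38.p6).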

Additional observations from a re-analysis of the deposited data

How the results depend on the processing

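For the CD40 agonist average effect, Adgre1, Cx3cr1, Folr2 and Spp1 changed sign under at least 1 alternative, and the other 25 tested members kept it. The members called in a comparison, and the 3 with the lowest p of each, kept their sign under every alternative run. Leaving out single libraries aside, they kept their side of the threshold in 186 cases, lost the call in 25 and gained it in 9. Without single libraries the numbers were 172, 70 and 4. The median of the IL-1R1 blockade average effect, near 0, was -0.09 to 0.14 without single libraries, and the medians of the other comparisons kept their sign. In combination against untreated tumours, called members numbered 7 with DESeq2 and 2 each with no filter on low counts, with only the compared groups in the fit and without the muscle-rich libraries, against 0, and leaving out single libraries gave 0 to 6, of which 1 was lower. In combination against anti-IL-1R1 tumours they numbered 16 with DESeq2, which called 1297 of all genes there. They numbered 10 with only the compared groups and 11 without the muscle-rich libraries, against 5. Leaving out single libraries gave 0 to 9 called members, of which 1 was lower. For the CD40 agonist average effect they numbered 14 with DESeq2, 0 with limma voom and 2 without the muscle-rich libraries, against 6, and leaving out single libraries gave 0 to 13. The cause of these shifts was not tested. No pairing of the samples by replicate number was seen: 2 of 18 same-numbered pairs correlated above 0.1, and 11 of 36 library-to-group matches were best with the own number. With 3 libraries a group, these values cannot exclude a pairing. With the replicate block, 0 members were called in combination against anti-IL-1R1 tumours and 0 for the CD40 agonist average effect. In both, 0 of all genes were called as well. The median over members in combination against CD40 agonist tumours was 0.67 without the muscle-rich libraries and 0.18 to 0.69 without single libraries, against 0.29. In combination against anti-IL-1R1 tumours it was 1.02 to 1.49 without single libraries, against 1.14. Medians and counts of members in the other comparisons and settings stayed within the spread between replicates or within 1.5 times. Depth limits Folr2, Vsig4 and Marco, which rest on few reads.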

Other observations

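C1qa, C1qb and C1qc lie side by side on chromosome 4, and the ratio of C1qa to C1qb was 1.58, 1.40 and 2.75 in combination tumours, 1.60, 1.30 and 1.23 in CD40 agonist tumours, 1.30, 1.79 and 1.26 in anti-IL-1R1 tumours and 1.29, 1.15 and 1.31 in untreated tumours. Combination 3 had the highest value, and there the ratio of C1qb to C1qc was also the lowest of the 12 libraries at 0.696. The same library held the largest sum of T and NK cell markers (126 CPM) and the smallest sum of epithelial markers (2604 CPM).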
